A study of Rattus norvegicus with 9 samples.

Results

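Kcnab1 and its Shaker-type partners are 8 genes of voltage-gated potassium channels: the beta subunits Kcnab1 and Kcnab2, and the alpha subunits Kcna1 to Kcna6. They are 8 of 4736 genes named on the rat arrays and were read by 13 of 8740 probe sets, each annotated to exactly 1 of these symbols, with 3 probe sets for beta and 10 for alpha subunits; 5 genes had 2 probe sets and Kcnab1 had 1. Kcnab1 was chosen by its high signal after 3 days of dehydration, so its values on the 3-day arrays are a description and carry no test. The other genes were taken as its channel partners and not by their values.

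RNA came from the supraoptic nucleus of male Sprague Dawley rats aged 10 to 12 weeks. There were 3 groups of 3 arrays each: controls, rats dehydrated for 1 day, and rats dehydrated for 3 days. The titles mark the arrays of each group with the letters a, b and c. Neither the meaning of the letter nor the number of animals behind an array is stated. The errors below thus measure the spread between arrays, which may be partly technical. Standard errors (SE) are from limma fits, which draw the spread of a probe set toward that of probe sets of like intensity. These fits leave the letter out unless it is named as a block. The labels name the nucleus and no sorted cell type, and in such bulk RNA fewer cells of a type and less RNA per cell cannot be told apart.

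Shaker-type alpha subunits assemble in groups into the pore of a potassium channel that opens on depolarization, and cytoplasmic beta subunits bind to their inner face. The beta subunit encoded by Kcnab1 carries an N-terminal stretch that plugs the pore and turns slowly inactivating Kcna channels into fast inactivating ones, while the product of Kcnab2 lacks this plug and is known for helping the channels to reach the membrane and the axon. In the magnocellular neurons of the supraoptic nucleus, which make vasopressin and oxytocin, potassium currents shape the width of the action potential and the firing pattern. The markers of these neurons were present: Avp, the vasopressin gene, ranged from 1621.8 to 5678.3 over the 9 arrays and Oxt, the oxytocin gene, from 208.3 to 4356.1 (MAS5 signal, the linear intensity per probe set that the authors deposited).

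The arrays were scaled alike but differed in range. Their highest signals were 2104.8 on control c and 2238.9 on 1-day c, between 3867.3 and 4137 on the other control and 1-day arrays, and between 4830 and 6294.9 on the 3-day arrays. The ratio of 3' to 5' signal of Gapdh is a sign of RNA quality. It was 0.93 to 1.09 on control arrays and 0.85 to 1.05 on 1-day arrays. On 3-day arrays a, b and c it was 1.12, 0.89 and 1.55. The same ratio of actin was 0.74 to 1.07 on control, 1.13 to 1.48 on 1-day and 0.99 to 1.43 on 3-day arrays. For actin the 1-day arrays thus stood above all control arrays.

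The stretches upstream of the beta subunit genes Kcnab1 and Kcnab2 are shown because their signals took different courses below. Both are the 250 bases before an annotated transcription start, from RefSeq (GRCr8), written 5′ to 3′ on the gene's strand. The Kcnab1 stretch is chr2:151614301-151614550 on the plus strand. Its start is not the outermost one annotated for this gene. The Kcnab2 stretch is chr5:168270761-168271010 on the minus strand.

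Kcnab1: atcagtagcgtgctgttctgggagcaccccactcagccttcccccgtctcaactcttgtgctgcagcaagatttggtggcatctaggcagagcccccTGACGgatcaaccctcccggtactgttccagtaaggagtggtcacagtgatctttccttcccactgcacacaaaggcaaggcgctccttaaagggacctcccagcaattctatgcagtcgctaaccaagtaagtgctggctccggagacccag
Kcnab2: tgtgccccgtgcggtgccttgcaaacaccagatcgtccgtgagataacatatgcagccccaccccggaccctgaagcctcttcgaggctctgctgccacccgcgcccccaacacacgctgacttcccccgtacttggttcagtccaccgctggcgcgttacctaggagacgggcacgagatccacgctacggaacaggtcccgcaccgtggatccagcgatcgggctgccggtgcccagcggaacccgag

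Capitals mark the only match, on either strand, to motifs of factors that respond to activity or osmolarity. This is 1 half-site of the cAMP response element, TGACG, beginning at base -153 before the Kcnab1 start; 18.2% of the 33469 stretches of the same length hold this motif. The full element TGACGTCA (1.59% of stretches), the AP-1 motif TGANTCA (6.34%), the Egr motif GCGTGGGCG (0.478%) and the core of the tonicity element TGGAAA (19.7%) had 0 matches in both. TGACG lies within TGACGTCA, so that these 2 searches overlap. The match is a run of letters and not a measured binding site.

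Kcnab1 was dim on control and 1-day arrays and bright on all 3-day arrays. Its signal was 11.7, 27.3 and 10.2 on control arrays a, b and c, 17.1, 13.7 and 10.8 on 1-day arrays, and 73.6, 91.1 and 63.3 on 3-day arrays. The lowest 3-day signal was 2.32 times the highest control signal and 3.70 times the highest 1-day signal, so the 3-day arrays overlapped with neither group. The means were 76.0 ± 14.1 at 3 days, against 16.4 ± 9.5 in control (SD, n = 3), a ratio of 4.63. At 1 day the mean was 13.9 ± 3.2 (SD, n = 3).

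On the scale of log2(signal + 4), which understates changes of dim genes, Kcnab1 differed by 2.05 ± 0.44 (SE) between 3 days and control and by 2.16 ± 0.44 between 3 days and 1 day. Among 5247 probe sets with enough signal to be tested, 1 had a higher difference at 3 days against control, an Avp probe set, and 2 had a higher one at 3 days against 1 day, the same Avp probe set and Jun. The Avp signals given in this text come from another probe set, with a smaller difference than Kcnab1. That probe set read 3871, 4108.4 and 5678.3 at 3 days against 2867.6, 2486.9 and 1764.9 in control. For Kcnab1 the difference was positive in each letter, which follows from groups that do not overlap and adds no support. It was 2.31 for a, 1.60 for b and 2.24 for c for 3-day minus control. For 3-day minus 1-day it was 1.88, 2.43 and 2.19. A single probe set read this gene, and its control and 1-day signals lay near the dim end of the arrays, where the cutoff for testing was a mean of 23.1. Kcnab1 passed that cutoff only through its 3-day arrays. With a pseudocount of 16 in place of 4 the difference from control was 1.53, and 2.26 with a pseudocount of 1.

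Other measures moved with the same arrays. The summed signal of the magnocellular markers Avp, Oxt and Pdyn, 3 of 3 on the array, was 2623.7 to 6584.5 on control arrays, 2603.5 to 7058.6 on 1-day arrays and 8133.3 to 11153.9 on 3-day arrays, which stood above all others. By gene, the 3-day signals stood above all others only for Avp, with 3871, 4108.4 and 5678.3. Those of Oxt (3909.8, 3218.7 and 4356.1) and Pdyn (815.2, 806.2 and 1119.5) were above control but overlapped with 1-day arrays. Oxt was 208.3 on control c and 272 on 1-day c, which lowered the sums there. The summed signal of 4 of 6 endothelial and blood markers, mostly the beta-globin gene Hbb, was 1703.4 to 1763.4 on control arrays and 1776.9 to 2465.1 on 1-day arrays. On 3-day arrays it was below all others, at 982.2 to 1243.2. Hbb alone was below all other arrays, with 836.2, 1023.3 and 1136.2 at 3 days against 1623.6, 1564 and 1653.2 in control, while the endothelial genes Pecam1 (51.9, 57.7 and 36.4 against 35.4, 51.9 and 21.4), Flt1 (73.6, 84.5 and 54.6 against 87.1, 79.8 and 59.7) and Vwf (20.5, 16.4 and 16 against 17.3, 7.7 and 9.1) overlapped with control. For 6 of 8 general neuron markers the sums were 3349 to 4064.9 on control, 3439.4 to 4044.6 on 1-day and 3717.2 to 4004.2 on 3-day arrays, with overlap between groups. The groups also overlapped for 8 of 9 astrocyte markers, with 6519.8 to 11131.4 on control, 6675.7 to 11676.3 on 1-day and 10725.3 to 13702 on 3-day arrays. For 7 of 10 oligodendrocyte markers the sums were 5236 to 8148.6, 4378.6 to 8551.9 and 3856.6 to 8455.1, and for 5 of 8 microglial markers 168.4 to 268.6, 188.6 to 386.3 and 187.9 to 257.2, again with overlap. None of the 33 markers was listed at 0 on any array, and their part in the Kcnab1 signal was not tested. The highest signals of the 3-day arrays were also above those of the others, and their part in it was not tested. After quantile normalization, which gives all arrays the same range, the Kcnab1 difference from control was 2.02, a value from the same arrays on which the gene was chosen.

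**Figure D1:**
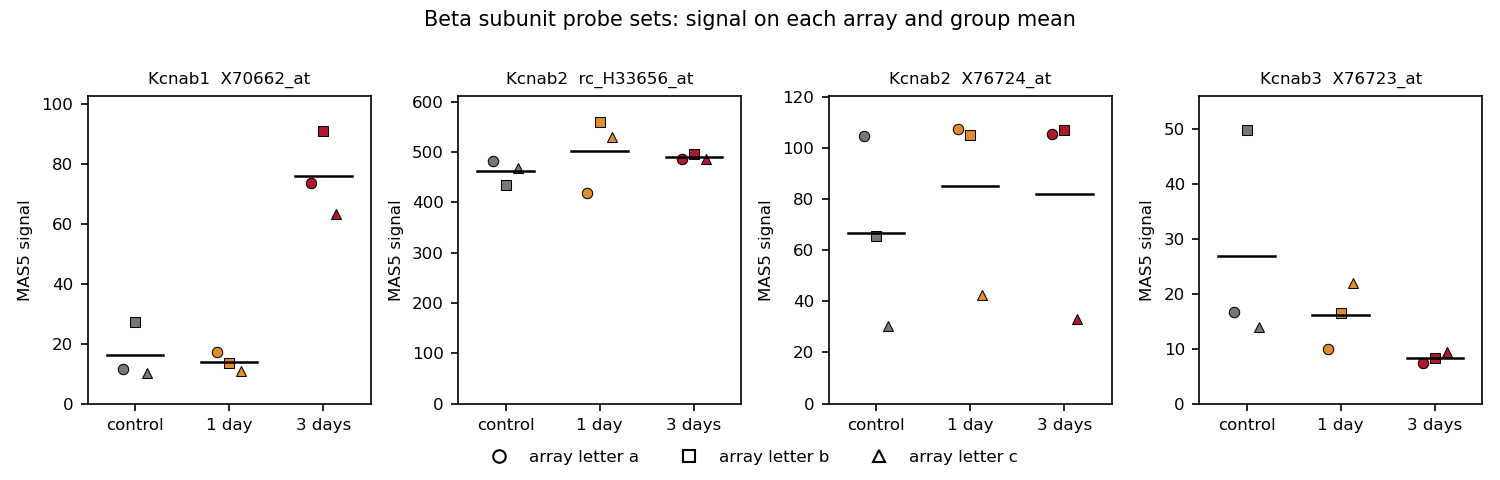
MAS5 signal (vertical axis, linear, from 0, with its own scale in each panel) of the beta subunit probe sets on control, 1-day and 3-day arrays; each marker is 1 array with its letter as shape, and the line is the group mean. Kcnab1 reads 63.3 to 91.1 at 3 days and 10.2 to 27.3 in control, while both Kcnab2 probe sets keep similar means and Kcnab3, shown for comparison, is at 7.3 to 9.4 at 3 days and 14 to 49.7 in control.

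After 1 day of dehydration the Kcnab1 arrays overlapped with control arrays. The 1-day minus control difference was -0.11 ± 0.44, and within letters a, b and c it was 0.43, -0.82 and 0.06. No test is given, because both group means lay under the cutoff and the probe set entered the fit only through its 3-day arrays. The order of the group means was 1 day, control and 3 days, with overlap between the first 2, and signals this dim leave a difference at 1 day undetermined.

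Kcnab2, the beta subunit without the inactivating stretch, was read by 2 probe sets. The first, rc_H33656_at, had signals of 481.4, 435.2 and 467.1 in control, 418.3, 558.9 and 530.3 at 1 day, and 486.5, 495 and 486.5 at 3 days. The 3-day and control arrays did not overlap, but the gap was small: the lowest 3-day signal was 1.01 times the highest control signal. The difference was 0.09 ± 0.21 (limma adjusted p = 1.00), with a 95% interval from 0.77-fold to 1.47-fold. The other probe set, X76724_at, read 104.5, 65.4 and 30.5 in control, 107.6, 105.1 and 42.6 at 1 day, and 105.5, 107.0 and 33.0 at 3 days. Its groups overlapped, and its difference at 3 days was 0.26 ± 0.56 (adjusted p = 1.00; 95% interval 0.51-fold to 2.82-fold). At 1 day the 2 probe sets differed from control by 0.11 ± 0.21 and 0.38 ± 0.56 (adjusted p = 1.00 for both).

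The remaining beta subunit gene Kcnab3 is no member but was on the array, and it stood in the opposite direction. Its signals were 16.7, 49.7 and 14.0 in control, 10.0, 16.4 and 21.9 at 1 day, and 7.3, 8.3 and 9.4 at 3 days. The 3-day arrays lay below all control and all 1-day arrays. Over all 8740 probe sets, 2.63% lay below control and 2.56% below 1 day in this way. Its mean over the arrays, 17.1, was under the cutoff for testing. The 3-day minus control difference was -1.14 on the log2 scale, with no test, and it was -0.87, -2.13 and -0.43 within letters a, b and c.

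Kcna1 encodes the Shaker-type subunit whose mutation causes episodic ataxia in humans, and it was the alpha subunit with both probe sets above the cutoff. Probe set X12589cds_s_at read 250, 67.4 and 154.0 in control, 235.2, 66.0 and 135.4 at 1 day, and 189.8, 138.5 and 206.6 at 3 days. In each group the array of letter b was the lowest, and the spread between letters was wider than that between group means. The means were 157.1 ± 91.3 for control, 145.5 ± 85.1 for 1-day and 178.3 ± 35.5 for 3-day arrays (SD, n = 3). The difference from control was 0.34 ± 0.51 at 3 days and -0.10 ± 0.51 at 1 day (limma adjusted p = 1.00 for both).

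The second Kcna1 probe set, M26161_at, read 55.2, 24.4 and 32.8 in control, 31.1, 32.2 and 20.1 at 1 day, and 48.1, 33.9 and 36.5 at 3 days. All of its 3-day arrays lay just above all of its 1-day arrays, by a factor of 1.05 between the nearest arrays. Its difference was 0.46 ± 0.40 between 3 days and 1 day, 0.12 ± 0.40 between 3 days and control, and -0.34 ± 0.40 between 1 day and control (limma adjusted p = 1.00 for each). Both Kcna1 probe sets thus had a small negative 1-day value and a small positive 3-day value, each smaller than its standard error in the fit without a block, and the 3-day values were -0.16 and -0.12 without control b.

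Kcna6, which encodes a delayed rectifier subunit, was read by M27159cds_s_at at 60.4, 58.3 and 9.1 in control, 70.1, 51.9 and 11.9 at 1 day, and 74.6, 53.7 and 24.3 at 3 days. The array of letter c was the lowest in each group. The groups overlapped, with a difference of 0.43 ± 0.74 at 3 days and 0.11 ± 0.74 at 1 day (limma adjusted p = 1.00 for both). The 3-day value was -0.33 without control c. The second Kcna6 probe set, X17621cds_at, was under the cutoff, with control signals of 2.3 to 19.8, 1-day signals of 9.5 to 20.9 and 3-day signals of 3.5 to 28.7, and again the letter c was lowest in each group.

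Kcna5, known from heart muscle and blood vessels, passed the cutoff by little, with a mean of 24.9 over the arrays, and its control mean alone (19.7) would not have passed. Its probe set M27158cds_at read 35.0, 7.1 and 16.9 in control, 52.7, 19.8 and 6.4 at 1 day, and 36.7, 38.0 and 11.2 at 3 days. The groups overlapped throughout. The difference from control was 0.51 ± 0.74 at 3 days and 0.21 ± 0.74 at 1 day (limma adjusted p = 1.00 for both). Passing the cutoff through the dehydrated arrays favours a higher value in both comparisons, so nothing is read from their direction.

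The other alpha subunits had mean signals under the cutoff, though single arrays reached up to 34.3. In all, 6 member probe sets, with the second of Kcna6, were not tested. Kcna2, a partner of Kcna1 in axons, read 6.1 to 17.5 on control arrays, 6.9 to 26.3 on 1-day arrays and 0.9 to 15.4 on 3-day arrays by J04731_at. In the same order, X16003cds_s_at read 1.6 to 19.7, 3.2 to 5.5 and 3.7 to 4.2. Kcna3, known from lymphocytes and microglia, read 3.5 to 9.8, 6.5 to 30.8 and 8.1 to 19.1. Kcna4, the alpha subunit that inactivates fast by itself, read 5.2 to 26.3, 12.4 to 33.5 and 5.8 to 16 by X16002cds_s_at, and 8.4 to 20.4, 4.1 to 34.3 and 8.3 to 10.5 by M32867_at. The groups of all 6 overlapped in all comparisons, and a dim signal of a probe set does not show that its gene is silent.

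**Figure D2:**
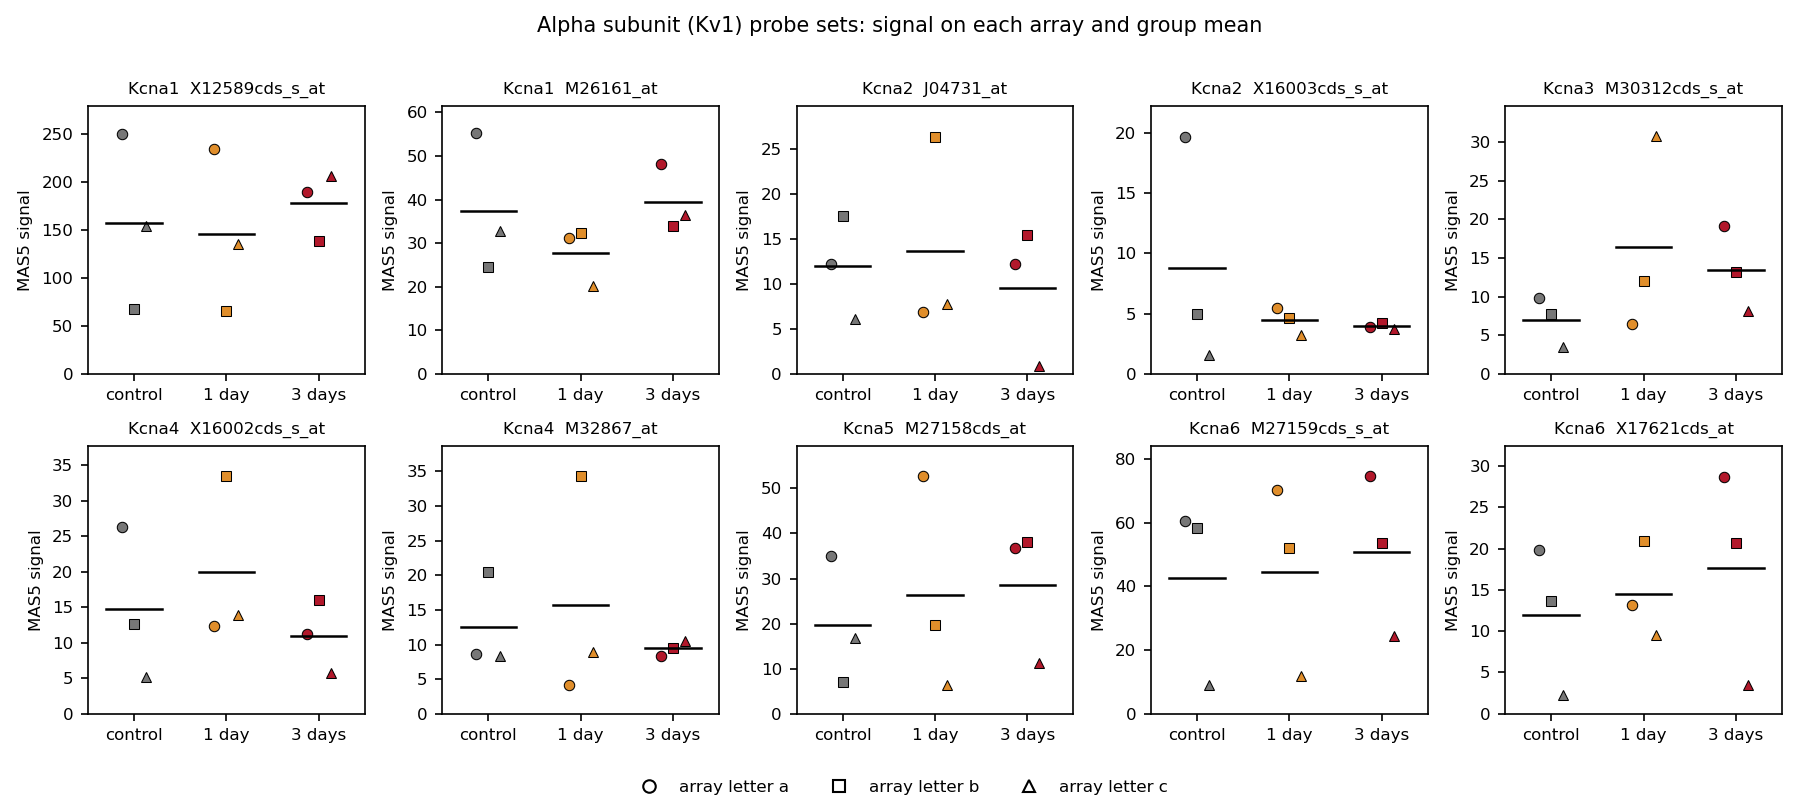
MAS5 signal (vertical axis, linear, from 0, with its own scale in each panel) of the 10 alpha subunit probe sets on control, 1-day and 3-day arrays, drawn as for the beta subunits. The panels of Kcna2, Kcna3 and Kcna4 stay under 35, and the triangles of letter c are lowest in each group for both Kcna6 probe sets, as the squares of letter b are for Kcna1 X12589cds_s_at.

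Set side by side, the members other than Kcnab1 showed no change that passed the test after 3 days of dehydration. Of their 6 tested probe sets, which read Kcnab2, Kcna1, Kcna5 and Kcna6, limma called 0 at an adjusted p under 0.05. Without adjustment 0 of the 6 had a p under 0.05. Of all 5247 probe sets limma called 0%, with 90 at an unadjusted p under 0.05. All 6 were higher on average than in control, by 0.09 to 0.51, but the sign turned with 1 array left out for 4 of them: Kcnab2 X76724_at and Kcna6 M27159cds_s_at without control c (-0.18 and -0.33), and the Kcna1 probe sets X12589cds_s_at and M26161_at without control b (-0.16 and -0.12). Leaving out 1 array also breaks its pairing by letter. The highest difference, 0.51, was that of Kcna5, whose control mean of 19.7 was under the cutoff. Kcna5 was thus tested only through its dehydrated arrays, which favours a higher value. Within letters Kcnab2 X76724_at was higher in 3 of 3, by 0.01, 0.68 and 0.10 for a, b and c, as was Kcnab2 rc_H33656_at, by 0.02, 0.18 and 0.06, and the other 4 were higher in 2 of 3. The 3-day arrays stood clear above the control arrays for 2 of the 13 member probe sets, Kcnab1 and Kcnab2 rc_H33656_at, and below them for 0; over all 8740 probe sets these shares were 4.54% and 2.63%. Nothing is read from the Kcnab1 count, since that gene was chosen on these arrays.

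After 1 day limma called 0 of the 6 tested probe sets other than Kcnab1, with 0 at an unadjusted p under 0.05, and 0% of all tested probe sets, of which 53 had an unadjusted p under 0.05. The 1-day arrays were clear of the control arrays for 0 of 13 member probe sets in either direction, against 2.86% of all probe sets higher and 1.83% lower. Within letters Kcnab2 X76724_at was higher in 3 of 3, by 0.04, 0.65 and 0.43, and Kcna1 X12589cds_s_at lower in 3 of 3, with -0.09, -0.03 and -0.18.

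Between 3 days and 1 day limma called 0 of the 6 tested probe sets other than Kcnab1, with 0 at an unadjusted p under 0.05; over all probe sets it called 0%, with 96 at an unadjusted p under 0.05. The 3-day arrays lay above the 1-day arrays for 2 of 13, Kcnab1 and Kcna1 M26161_at, and below for 0, where all probe sets had 3.17% and 2.56%. The comparisons share arrays, so their values are not independent of each other.

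**Figure D3:**
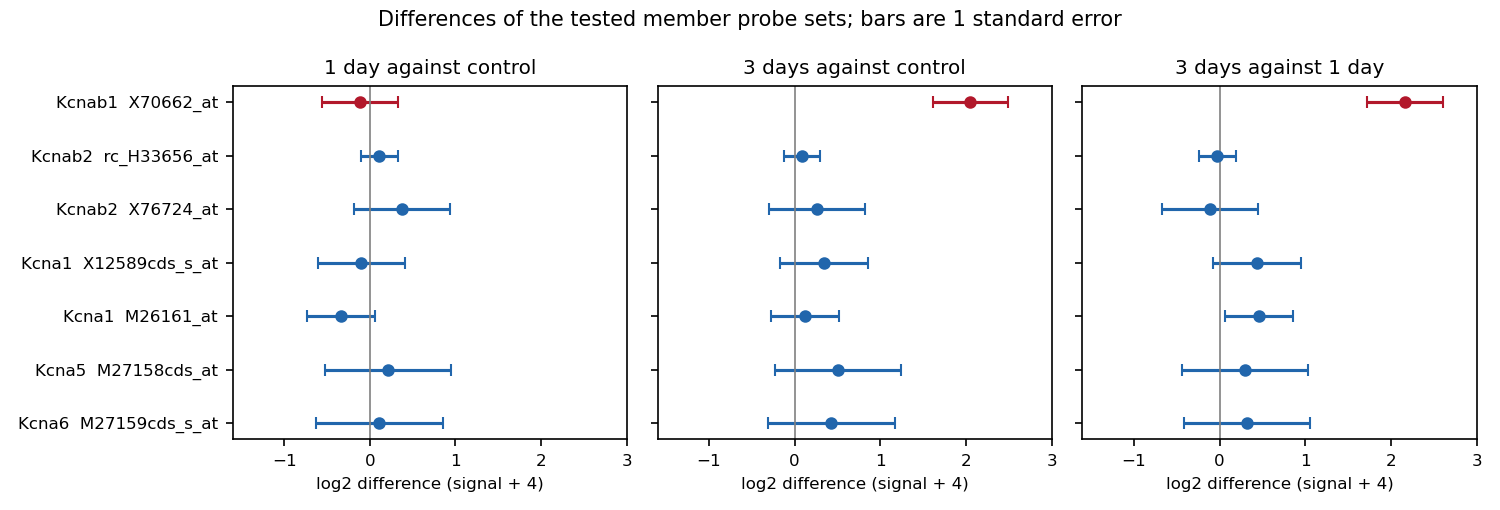
Difference in log2(signal + 4) (horizontal axis) of the 7 tested member probe sets in the 3 comparisons, with bars of 1 standard error; red is Kcnab1 and blue the others. Kcnab1 stands at 2.05 and 2.16 in the comparisons that use the 3-day arrays and at -0.11 at 1 day, while the others lie between -0.34 and 0.51.

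**Figure D4:**
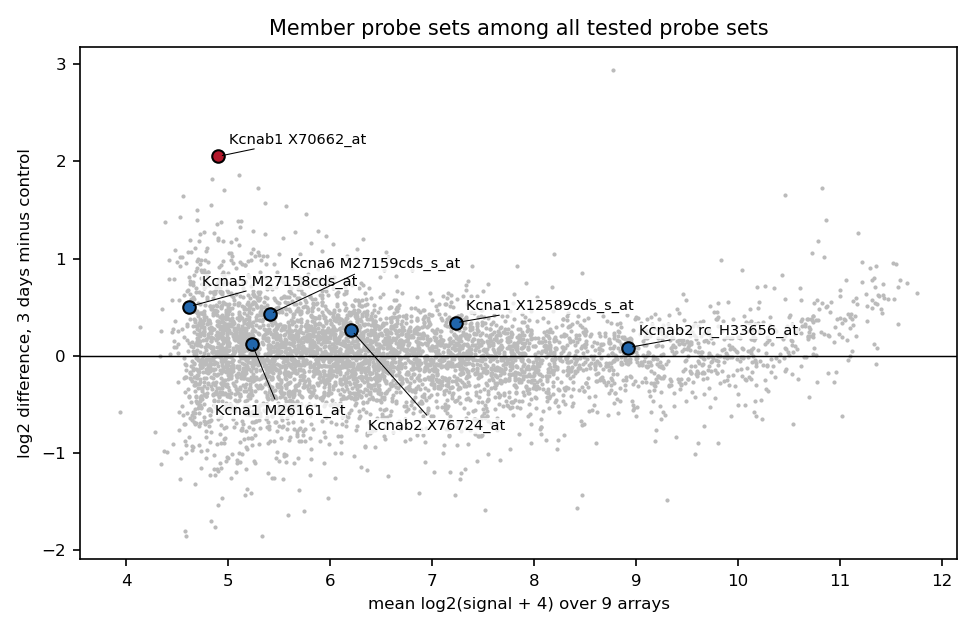
Difference in log2(signal + 4) between 3 days and control (vertical axis) against the mean of log2(signal + 4) over the 9 arrays (horizontal axis) for the 5247 tested probe sets in grey, with the 7 member probe sets marked. Kcnab1, at 2.05, has 1 probe set above it, and the other members lie within the grey cloud at 0.09 to 0.51.

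Several members were lowest on arrays of the same letter. The arrays of letter c also had the lowest median signal of their group, at 27.4 in control, 26.9 at 1 day and 31.5 at 3 days. The medians of the other arrays were 34.75 to 40.4, and the part of this in the members was not tested. The array of letter c was the lowest of its group in all 3 groups for 5 of the 13 member probe sets, those of Kcnab1, Kcnab2 X76724_at, Kcna2 X16003cds_s_at and both of Kcna6; for letter b this held for 1, Kcna1 X12589cds_s_at, and for letter a for 0. For the dim Kcna2 X16003cds_s_at the gap was small at 3 days, with 3.9, 4.2 and 3.7 on a, b and c. Over all 8740 probe sets the shares were 13.01% for c, 5.46% for b and 6.90% for a. Among the 7 tested members it held for 3, 1 and 0, against 11.0%, 8.08% and 8.48% of all tested probe sets. With the letter as a block in the fit, the differences were the same and the standard errors smaller: 0.24 in place of 0.56 for Kcnab2 X76724_at, 0.33 in place of 0.74 for Kcna6 M27159cds_s_at, 0.28 in place of 0.51 for Kcna1 X12589cds_s_at and 0.39 in place of 0.44 for Kcnab1. At 3 days against control the differences of the first 3 of these, 0.26, 0.43 and 0.34, were then larger than their standard errors. Their limma adjusted p was 0.916, 0.902 and 0.902, so none was called. At 1 day against control the difference of Kcnab2 X76724_at, 0.38, was also larger than its standard error of 0.24 (limma adjusted p = 0.958). Those of Kcna6 M27159cds_s_at (0.11) and Kcna1 X12589cds_s_at (-0.10) were smaller than theirs.

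In the rat genome several alpha subunit genes lie side by side. Kcna1 stands between Kcna5 and Kcna6 with 0 protein-coding genes separating neighbours, and Kcna2 stands next to Kcna3 in the RefSeq gene table of GRCr8. Within the first cluster the 3-day minus control differences were 0.34 and 0.12 for Kcna1, 0.51 for Kcna5 and 0.43 for the tested Kcna6 probe set, each smaller than its standard error without the block. In the second, Kcna2 stood at -0.40 and -0.42 and Kcna3 at 0.66, untested. With 1 array left out, the 2 Kcna2 values ran from -0.77 to 0.22 and from -0.88 to 0.16, and that of Kcna3 from 0.40 to 0.90.

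The 6 genes with the profile most like that of Kcnab1 were found by Pearson correlation of log2(signal + 4) over the 9 arrays among 4352 tested probe sets with 1 gene symbol. They were the translation elongation factor gene Eef1a1 (r = 0.97), the lysosomal transporter gene Mfsd12 (0.90), the translation repressor gene Eif4ebp1 (0.89), the amyloid precursor-like gene Aplp2 (0.89), Adap1, which encodes a regulator of small GTPases (0.88), and the ATP synthase subunit gene Atp5f1b (0.86). These were picked as the highest of many on few arrays and carry no test. Their 3-day differences from control were smaller than that of Kcnab1: 0.44 for Eef1a1, with mean signals of 116.9 ± 3.1 at 3 days and 85.5 ± 9.8 in control, 1.28 for Mfsd12, with 61.9 ± 20.3 and 22.9 ± 7.9, and 0.35 for Atp5f1b, with 2063 ± 230 and 1613 ± 92 (SD, n = 3). Eif4ebp1 stood at 0.57, Aplp2 at 0.41 and Adap1 at 0.62. The other tested members had r from -0.05 for Kcnab2 rc_H33656_at to 0.38 for Kcna6. The 6 genes above were the highest of 4352 probe sets, and Kcnab1 was chosen by its 3-day signal. Nothing is therefore read from the lower r of the members.

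**Figure D5:**
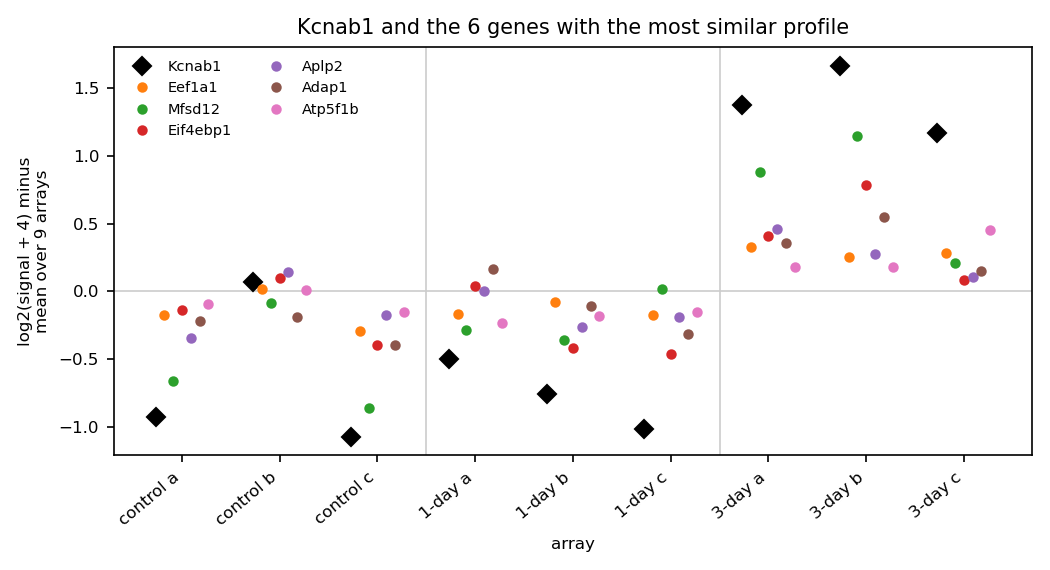
Log2(signal + 4) minus its mean over the 9 arrays (vertical axis) on each array (horizontal axis) for Kcnab1 (black diamonds) and the 6 genes with the highest Pearson correlation to it (coloured circles). Kcnab1 spans a wider range than the others, whose 3-day differences from control are 0.35 to 1.28 against 2.05 for Kcnab1.

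Proteins found together with Shaker-type channels, at axons and synapses, and the further subunits of the family made a list of 14 genes, of which 7 had a probe set and 4 were tested. After 3 days limma called 0 of the 4, with 0 at an unadjusted p under 0.05. All 4 were higher on average, with a median of 0.16 against 0.02 over all tested probe sets. They were the adhesion protein gene Cntn2 (0.24 ± 0.31) and the scaffold genes Dlg2 (0.23 ± 0.45), Dlg1 (0.09 ± 0.48) and Dlg4 (0.04 ± 0.30). Kcnab3, also on this list but under the cutoff and not tested, stood at -1.14. At 1 day limma called 0, with 1 higher and 3 lower and a median of -0.06 (0.02 over all), and between 3 days and 1 day 0, with 3 higher and 1 lower and a median of 0.19 (0.00 over all).

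Other voltage-gated potassium channel subunits made a list of 43 genes, of which 23 had a probe set and 19 were tested. At 3 days limma called 0 of the 19, with 0 at an unadjusted p under 0.05, and 7 higher and 12 lower than in control, with a median of -0.07. In order of unadjusted p, the first 5 were the Shaw-type gene Kcnc1, at 105.0 ± 24.6 after 3 days and 144.8 ± 19.4 in control (SD, n = 3; -0.47 ± 0.27), the ether-à-go-go-type gene Kcnh5 (1.03 ± 0.65), the Shaw-type gene Kcnc2 (-0.94 ± 0.66), Dpp6, which encodes an accessory subunit of Kcnd channels (0.24 ± 0.29), and Kcnh2, again of the ether-à-go-go type (0.22 ± 0.28). The control mean of Kcnh5 (20.9) was under the cutoff, so Kcnh5 was tested only through its dehydrated arrays. This favours a higher value against control, so nothing is read from its direction. At 1 day limma called 0 of the 19, with 8 higher and 11 lower (median -0.03). Between 3 days and 1 day it called 0, with 11 higher and 8 lower (median 0.01).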

How the data were processed

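RNA of 9 arrays was used. The authors deposited MAS5 intensities on a linear scale, per the submitters' processing notes; the MAS5 version, detection calls and scaling target are not given in the sources used here, but the trimmed means of the deposited intensities lay between 100.1 and 100.1. Genes were named from the platform annotation, and all 13 member probe sets matched the RefSeq gene table. Of 8740 probe sets without controls, those with a mean signal at or above the 40th percentile (23.1) were tested, 5247 in all. limma 3.58.1 (R 4.3.3) fitted the 3 group means to log2(signal + 4) of all 9 arrays with an intensity trend, with Benjamini-Hochberg adjustment over all tested probe sets at 0.05; the fit was checked on simulated arrays. With 3 arrays a group their number limits the precision. Figures were drawn with matplotlib 3.10.9.

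The members, lists and tests were chosen with earlier results of these data known. Named genes are all members, the 6 most like Kcnab1, and up to 5 per wider list with the smallest p at 3 days. Pairs of arrays with the same letter in their titles deviated together from the group means: the correlation of these deviations was 0.17 to 0.47 for the 9 pairs, against -0.33 to 0.12 for 18 pairs with different letters, so the letters were taken to pair the arrays. A fit with the letter as replicate block, which leaves 4 residual degrees of freedom in place of 6, was an alternative. Unless the block is named, standard errors, intervals and p-values come from the fit without it, which leaves this pairing out. The others were pseudocounts, filters, scalings, variance priors, fits on the groups compared, and fits without each array or without both control c and 1-day c.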

Additional observations from a re-analysis of the deposited data

How the results depend on the processing

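Values here are differences in log2(signal + 4) unless another pseudocount is named. limma called 0 member probe sets other than Kcnab1 under each of 19 alternatives in which the comparison could be fitted. It also called 0 probe sets in all, and nothing is read from that for Kcnab1, which was chosen on its 3-day arrays. With the replicate block the lowest adjusted p of a member other than Kcnab1 was 0.902 at 3 days against control, 0.958 at 1 day against control and 0.770 at 3 days against 1 day, and the block changed no call. Unadjusted p-values under 0.05 were more frequent with the block (270, 136 and 275 probe sets) and without a filter (163, 112 and 203) than in the fit reported (90, 53 and 96). Kcnab1 was 1.53 at 3 days against control and 1.62 against 1 day with a pseudocount of 16, and 1.84 to 2.41 and 2.03 to 2.29 with 1 array left out.

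With 1 array left out, the ranges of several probe sets crossed 0. These fits have no block and keep the other arrays of the letter left out. The letters are therefore no longer balanced between the groups. Under the cutoff, at 3 days against control, both probe sets of Kcna2 and of Kcna4 and Kcna6 X17621cds_at crossed 0, and Kcna3 did not. For probe sets above the cutoff the following ranges crossed 0. At 3 days against control they were -0.18 to 0.79 for Kcnab2 X76724_at, -0.16 to 0.76 for Kcna1 X12589cds_s_at, -0.12 to 0.41 for Kcna1 M26161_at and -0.33 to 0.85 for Kcna6 M27159cds_s_at. At 1 day against control they were -0.33 to 0.24 for Kcnab1, -0.068 to 0.79 for Kcnab2 X76724_at, -0.59 to 0.36 for Kcna1 X12589cds_s_at, -0.41 to 0.82 for Kcna5 and -0.65 to 0.78 for Kcna6 M27159cds_s_at. At 3 days against 1 day they were -0.15 to 0.055 for Kcnab2 rc_H33656_at, -0.53 to 0.41 for Kcnab2 X76724_at, -0.022 to 0.86 for Kcna1 X12589cds_s_at, -0.31 to 0.91 for Kcna5 and -0.35 to 0.76 for Kcna6 M27159cds_s_at.

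Without both control c and 1-day c, Kcnab2 X76724_at (-0.18) and Kcna6 M27159cds_s_at (-0.33) changed sign at 3 days against control, and Kcnab2 rc_H33656_at (0.017), Kcna5 (-0.31) and Kcna6 M27159cds_s_at (-0.35) at 3 days against 1 day. Kcnab2 rc_H33656_at also did so with median centring (0.0022). The cause was not tested. Under the filter at the 60th percentile the dim members, Kcnab1 among them, gave no value. Control and 1-day signals of Kcnab1 lie near the dim end, which limits its fold.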
